A study of Caenorhabditis elegans with 20 samples.

Results

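The genes described here are the translation factors and aminoacyl-tRNA synthetases of *Caenorhabditis elegans*, a small nematode. They were chosen by name: every gene whose array annotation symbol starts *eif-*, *eef-*, *ife-* or *iff-*, or is 1 letter followed by *ars-* and a number, together with *glp-4*, a valyl-tRNA synthetase. The rule gave 69 of the 17118 genes with a probe set of their own, and each gene was read from 1 probe set, its brightest by the mean of the 20 arrays. The symbol *eif-1* also meets the rule, but it was present only on a probe set shared with other genes and was left out.

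Whole animals of 4 genotypes were compared on Affymetrix expression arrays, with 5 arrays a genotype. Every strain carried *glp-4*(bn2), a temperature-sensitive allele of one of the genes described here, so no array shows *glp-4* or the germ line in an animal without that allele. Beside glp-4(bn2), the first genotype had daf-2(e1370) and the second daf-2(m577). The other genotypes joined the deletion daf-16(mgdf50) to daf-2(e1370) and to daf-2(m577). They are called e1370, m577, *daf-16* e1370 and *daf-16* m577 below. The worm's insulin/IGF-1 receptor is the product of *daf-2*, and *daf-16* makes the FOXO transcription factor that acts downstream of it. Eggs hatched at 20 °C, larvae grew at 15 °C and were shifted to 25 °C when most were L4, the last larval stage, and RNA came from sterile adults 1 day old. A replicate was the pooled animals of 8 plates. No strain with an unmutated *daf-2* gene was analysed here.

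Translation starts when initiation factors bring the initiator tRNA and the small ribosomal subunit to an mRNA. eIF2 carries the initiator tRNA and eIF2B reloads eIF2 with GTP, eIF3 is the multi-subunit scaffold on the small subunit, and eIF4E, encoded by the *ife* genes, binds the mRNA cap. Elongation factors then deliver charged tRNAs and move the ribosome, while eIF5A, encoded by the *iff* genes, helps it across difficult stretches. Aminoacyl-tRNA synthetases charge each tRNA with its amino acid, with separate sets of enzymes for the cytosol and the mitochondrion in many cases. In *C. elegans* the germ line is known as a heavy user of this machinery, and some family members are used mostly there.

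Levels are the deposited log2 values, so a difference of 1 is a 2-fold change. In each comparison 22548 probe sets were tested with limma and p-values were adjusted over all of them by the Benjamini-Hochberg method. A gene was called when the adjusted p was below 0.05. Of the 69 genes, 62 had a mean above 6.29, the highest value of any of the 15 Bacillus control probe sets on any array, which stand for background. The other 7 were *wars-1*, *eif-2Bdelta*, *eif-2Bepsilon*, *eif-3.H*, *aars-1*, *eif-4A3* and *cars-2*, so a small difference would be hard to see in them. Levels of different probe sets cannot be ranked against each other. Within a genotype the SD between arrays had a median of 0.52 over the 69 genes. It was 0.51 over the 12608 probe sets with a mean above 6.29, called the brighter probe sets below. That set leaves out dim probe sets but is not matched in level to the 69 genes, 7 of which are not in it.

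The arrays differed in the RNA of germ cells. The mean level of 36 oocyte and germ cell genes was 9.55 ± 1.01 (SD, n = 5) in e1370, 9.19 ± 0.92 in m577, 9.75 ± 1.13 in *daf-16* e1370 and 9.66 ± 0.33 in *daf-16* m577. Over single arrays it ran from 8.20 to 11.01, and the ranges of the 4 genotypes overlapped. The mean of 17 sperm genes was low on 3 arrays, at 6.57 on replicate 4 of e1370, 6.56 on replicate 3 of m577 and 6.39 on replicate 5 of *daf-16* e1370. Replicate 2 of *daf-16* e1370 stood apart from its group, with a median correlation of 0.847 with the other arrays of that genotype. The difference between 3' and 5' probe sets of control transcripts, a sign of RNA quality, was 1.87 ± 0.25 in *daf-16* m577 and from 1.33 to 1.47 as a mean in the other genotypes. In whole animals, fewer cells of a type and less RNA per cell cannot be told apart.

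The first comparison asked which of these genes differed with *daf-16* when *daf-2* was reduced. Few were called, which does not show that the others are independent of *daf-16*. Over both *daf-2* alleles *glp-4* and *sars-2* were lower with *daf-16* present and the other 67 genes did not pass the test. That is 2 lower and 0 higher, a share of 2.9%, against 6.32% of all probe sets called, 2.69% lower and 3.63% higher. The share called lower is close to that of all probe sets, so the count is not read as a result about the 69 genes. An unadjusted p under 0.05 was reached by 5 of the 69. The differences are given as the level with *daf-16* minus the level without it. Their median was -0.12 over the 69 genes, -0.04 over the brighter probe sets and 0.02 over all. For 58 of the 69 the 95% interval of the difference lay within a 2-fold change either way.

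The cytosolic valyl-tRNA synthetase *glp-4* had levels of 6.89, 6.29, 6.70, 7.39 and 7.52 in e1370 and 6.08, 6.97, 7.04, 7.28 and 7.25 in m577. Without *daf-16* it had 8.68, 6.61, 8.99, 7.56 and 7.86 in the e1370 background and 8.04, 8.34, 8.02, 8.07 and 7.07 in the m577 background. Of the 10 arrays without *daf-16*, 8 were above all 10 arrays with it, and the exceptions were replicate 2 of *daf-16* e1370 and replicate 5 of *daf-16* m577. The limma difference was -0.98 ± 0.27 (SE, adjusted p = 0.0352), a level 1.98-fold lower with *daf-16*, and the 95% interval ran from -1.55 to -0.41. It was -0.98 in e1370 (adjusted p = 0.242) and -0.98 in m577 (adjusted p = 0.263), so neither allele passed by itself. With the means of oocyte genes and of sperm genes in the fit it was -0.59 (adjusted p = 0.372), with the 3' to 5' measure in the fit -0.96 (adjusted p = 0.307), and without the 3 arrays with low sperm genes it was -1.06 (adjusted p = 0.0715). The part of germ cell RNA in the difference was not tested beyond these fits. With single arrays left out the *glp-4* call was lost in 11 of 20 fits. Of 13 intestinal marker genes, 8 were called lower with *daf-16* over both alleles and 1 higher, with a median of -0.81. Of the 36 oocyte and germ cell genes 0 were called, with a median of -0.32. The part of intestinal RNA in the *glp-4* and *sars-2* differences was not tested. The bn2 allele was present in all 4 genotypes, so these levels are those of the mutant gene.

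The synthetase *sars-2*, which charges the mitochondrial serine tRNA, had levels of 9.30, 9.08, 8.82, 9.13 and 9.34 in e1370 and 8.39, 9.18, 8.88, 8.89 and 8.94 in m577. Without *daf-16* the levels were 9.39, 9.18, 9.44, 9.51 and 9.54 in the e1370 background and 9.70, 9.21, 9.31, 9.35 and 8.97 in the m577 background. The groups overlapped, with 6 of the 10 arrays without *daf-16* above all those with it. The difference was -0.37 ± 0.11 (adjusted p = 0.0443 by limma), or 1.29-fold lower with *daf-16*. It did not pass with the germ cell means in the fit (-0.26, adjusted p = 0.455) or with the 3' to 5' measure (-0.27, adjusted p = 0.564). With single arrays left out the *sars-2* call was lost in 15 of 20 fits.

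**Figure D1:**
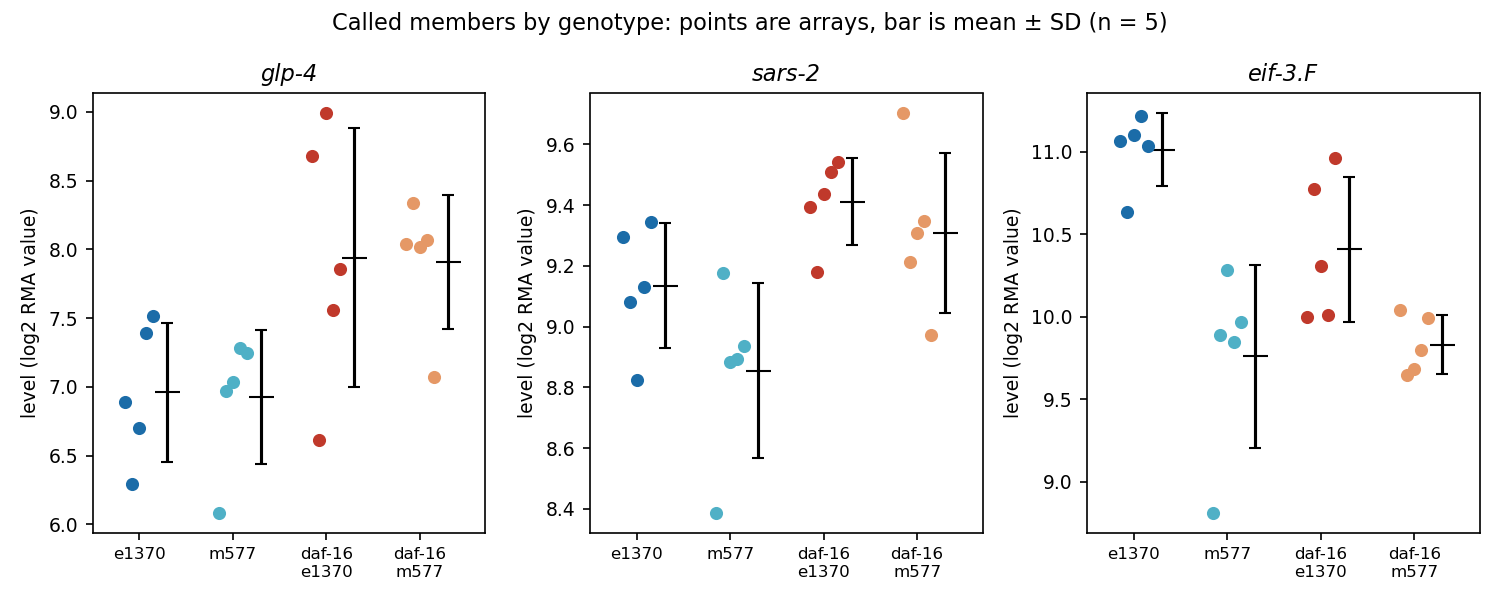
Levels of *glp-4*, *sars-2* and *eif-3.F* (log2 value, vertical axis) on each of the 20 arrays, by genotype. Points are arrays and the bar beside them is the mean ± SD of 5. *glp-4* spans 6.08 to 7.52 with *daf-16* and 6.61 to 8.99 without it, and *eif-3.F* is higher on every e1370 array than on any m577 array.

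Within each *daf-2* allele no gene of the 69 passed. In e1370 4.38% of all probe sets were called, and in m577 1.79%, in limma's fit. An unadjusted p under 0.05 was reached by 3 of the 69 genes in e1370 and by 11 in m577. The median difference was -0.10 in e1370 and -0.19 in m577, against -0.01 and -0.06 over the brighter probe sets. The 95% intervals lay within 2-fold for 40 genes in e1370 and 37 in m577, and those of the rest reached beyond it.

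The initiation genes are described next. None of the 7 genes for subunits of eIF2 and eIF2B was called over both alleles. Among them *eif-2Bepsilon*, the catalytic subunit of the exchange factor, differed by -0.47 and *eif-2Bbeta* by -0.46. Of the 10 eIF3 subunits none was called, and 8 of 10 differences were negative, as were 6983 of the 12608 brighter probe sets. *eif-3.K* differed by -0.42 and *eif-3.I* by -0.39. *eif-1.A*, which helps the small subunit scan for a start codon, differed by -0.23, and *eif-6*, which keeps ribosomal subunits apart, by -0.15. *eif-2A* and *eif-2D*, single-protein factors that are not part of the eIF2 complex, differed by 0.06 and 0.20. None of these was called.

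The cap-binding *ife* genes also showed no called difference. *ife-1*, *ife-3* and *ife-5* are known as germ line forms of eIF4E, *ife-2* as a form used in the soma and *ife-4* as one of neurons and muscle. The difference over both alleles was -0.54 for *ife-5* (adjusted p = 0.117 by limma), -0.24 for *ife-3*, 0.05 for *ife-2*, 0.10 for *ife-1* and 0.18 for *ife-4*. *ife-3* differed by 0.32 in e1370 and by -0.80 in m577, and the difference between these, 1.12 ± 0.64, was not past the threshold (adjusted p = 0.955). Of the eIF5A genes *iff-1*, known from the germ line, differed by -0.11, and *iff-2*, known from the soma, by 0.18. In e1370 alone *iff-2* differed by 0.59 (adjusted p = 0.18).

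Among the elongation factors the differences were small. *eef-1A.1* and *eef-1A.2*, which carry charged tRNAs to the ribosome, differed by -0.03 and -0.14. They are near-identical copies, and their probe sets may take up RNA of each other, so the values are uncertain. *eef-1B.1*, *eef-1B.2* and *eef-1G*, subunits of the factor that recharges them, differed by -0.04, -0.23 and -0.03. *eef-2*, which moves the ribosome along the mRNA, differed by -0.09. All 6 intervals lay within 2-fold. Mean levels over the 20 arrays were 13.23 for *eef-1A.1*, 12.80 for *eef-1B.1* and 12.77 for *eef-2*.

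Of the 20 cytosolic synthetases only *glp-4* was called over both alleles. Among the 20 differences 18 were negative, with a median of -0.22. Negative differences were also found in 6983 of the 12608 brighter probe sets and in 33 of the 36 oocyte and germ cell genes. All were read on the same arrays, so these signs are not separate observations. *nars-1*, for asparagine, differed by -0.57 (adjusted p = 0.292 by limma), and *mars-1*, for methionine, by -0.41. Of the 10 mitochondrial synthetases *sars-2* alone was called. *rars-2*, for arginine, differed by 0.39, and *iars-2*, for isoleucine, by -0.31. None of the 4 synthetases whose compartment was not assigned was called, and their differences ran from -0.05 to 0.07.

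Different probe sets of a gene did not always agree. For *yars-1*, the tyrosyl enzyme, the brightest of 3 probe sets differed by -0.04 over both alleles and the others by -0.44 and -0.76, of which the last was called (adjusted p = 0.00677 by limma). The 25 genes with several probe sets had 28 further probe sets, and for 10 of these the difference had the other sign from that of the probe set used.

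The second comparison asked whether the *daf-16* difference itself depended on the *daf-2* allele. In no gene of the 69 was the difference between the differences called by limma, against 0.177% of all probe sets, and 6 had an unadjusted p under 0.05. The interval was within 2-fold for only 18 genes, so this comparison was the least precise. *pars-2*, a mitochondrial prolyl enzyme, differed by 0.19 in e1370 and by -0.81 in m577, and the difference of 1.00 ± 0.32 did not pass (adjusted p = 0.479).

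**Figure D2:**
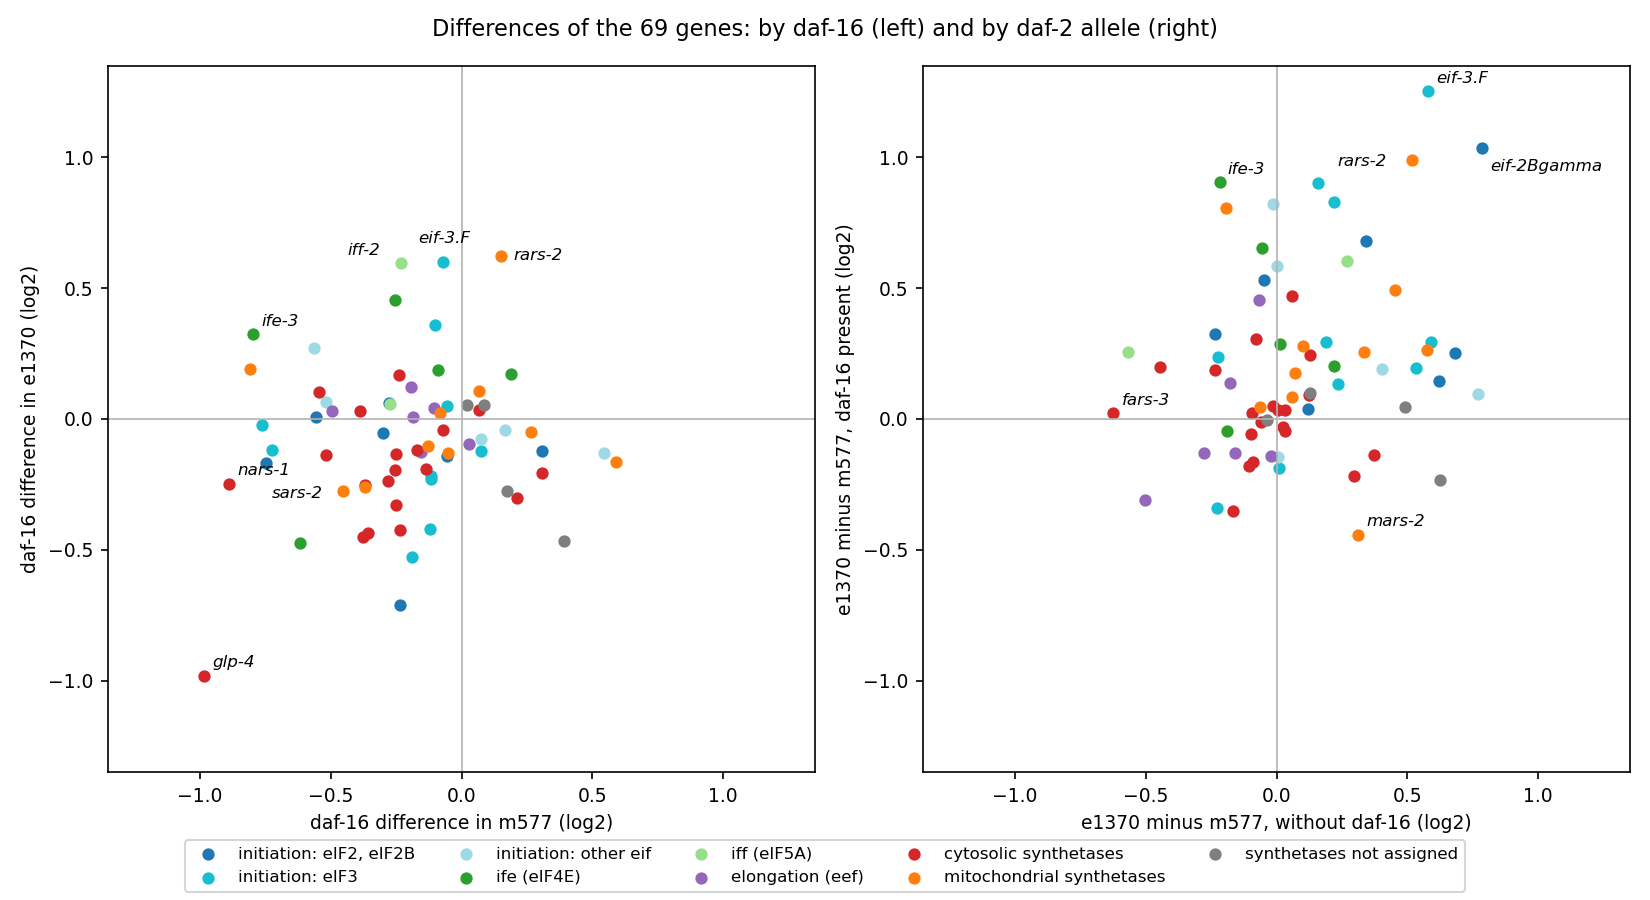
Log2 differences of the 69 genes. On the left the *daf-16* difference in m577 (horizontal) is set against that in e1370 (vertical), and on the right the difference between alleles without *daf-16* against that with it. Points are genes coloured by group. *glp-4* lies near -0.98 on both axes on the left, and *eif-3.F* at 1.25 is the highest point on the right. The axes of each panel use no array in common.

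The third comparison set the *daf-2* alleles against each other. With *daf-16* present, *eif-3.F*, which encodes subunit F of eIF3, was higher in e1370 than in m577. Its levels were 11.06, 10.64, 11.10, 11.22 and 11.04 in e1370 and 8.81, 9.89, 10.28, 9.85 and 9.97 in m577, so the groups did not overlap. The difference was 1.25 ± 0.23 (adjusted p = 0.0121 by limma), a 2.38-fold higher level, with a 95% interval from 0.76 to 1.74. In a fit of only the genotypes compared the same difference did not pass (adjusted p = 0.0586), nor did the 1.41 obtained with the number in the other sample names as a block (adjusted p = 0.0822). Without *daf-16* the levels were 9.997, 10.77, 10.31, 10.01 and 10.96 in e1370 and 10.04, 9.65, 9.68, 9.80 and 9.99 in m577, which overlap, and the difference was 0.58 and not called. The difference between these differences, 0.67 ± 0.33, was not past the threshold, so the allele difference is not shown to depend on *daf-16*. A second probe set of *eif-3.F* was also called, at 1.09 (adjusted p = 0.0178).

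*eif-3.F* was the only one of the 69 genes called between alleles with *daf-16*. That share, 1.45%, is close to the 1.32% of all probe sets called, 0.727% higher in e1370, so the count is not read as a result about the 69 genes. The 13 intestinal marker genes were all lower in e1370 than in m577 with *daf-16*, 4 of them called, and their mean level was 8.61 ± 0.38 in e1370 and 9.73 ± 0.44 in m577. Their part in the *eif-3.F* difference was not tested. With the germ cell means in the fit *eif-3.F* was still called, and *ife-3* and *rars-2* were called as well. The share of all probe sets called in that fit is not given here, so these calls are not read as a result about the 69 genes.

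Among genes that were not called, *eif-2Bgamma* was 1.03 higher in e1370 (adjusted p = 0.201 by limma), *rars-2* 0.99 higher (adjusted p = 0.414), *ife-3* 0.90 higher and *eif-3.I* 0.90 higher. *eif-6* was 0.82 higher and *pars-2* 0.81 higher. *mars-2* was lower, by -0.44. All 7 eIF2 and eIF2B subunit genes had positive differences, with a median of 0.32, and so did 6650 of the 12608 brighter probe sets. The 10 mitochondrial synthetases had a median of 0.26, and the 20 cytosolic ones 0.02. The median of all 69 was 0.14, and that of the brighter probe sets 0.03. A second probe set of *fars-2*, a mitochondrial phenylalanyl enzyme, was called at 0.88 (adjusted p = 0.0397), but the brighter probe set that stands for the gene gave 0.26.

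Without *daf-16* none of the 69 genes differed between alleles by limma's test. Of all probe sets 0.00443% were called, and 4 of the 69 had an unadjusted p under 0.05. The differences ran from -0.62 in *fars-3*, a subunit of the cytosolic phenylalanyl enzyme, to 0.79 in *eif-2Bgamma*. The interval was within 2-fold for 38 genes.

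Variation between arrays of the same genotype was looked at next. For this, limma was fitted to all probe sets with the genotype means and 2 further terms, the mean of the oocyte genes and the mean of the sperm genes on each array. The slope is the log2 change in a gene per 1 log2 unit of the oocyte gene mean at a fixed genotype and a fixed sperm gene mean. Both sides of the relation come from the same 20 arrays and share their RNA and scaling. The fit was chosen after the values of these arrays had been seen.

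On the oocyte gene mean, 31 of the 69 slopes were called positive and 1 negative. Over all probe sets 10.4% were called positive and 4.07% negative. Over the brighter probe sets these shares were 17.5% and 5.84%, or 23.3% in either direction. The median slope was 0.35 over the 69 genes, 0.03 over the brighter probe sets, which are not matched to them in level, and -0.05 over all. On the sperm gene mean none of the 69 was called by limma, against 3.41% of all probe sets.

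These counts were not stable. Without replicate 5 of e1370, 9 of the 69 slopes were called (4.85% of all probe sets), and without replicate 2 of *daf-16* e1370, 15 were (9.85%). With cyclic loess scaling 4 were called (4.53%), and the median slope was 0.24. The sign changed less between these fits. Slopes were above 0 for 63 of the 69 genes, against 6731 of the 12608 brighter probe sets and 8803 of all 22548. They were above 0 for 58 of the 69 with cyclic loess, and for 60 without replicate 5 of e1370. The share of all probe sets above 0 in those fits is not given here. All 69 genes were read on the same arrays, so their signs are not separate observations.

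Cytosolic synthetases made up the largest number of positive slopes. All 20 slopes were above 0, with a median of 0.64, and 17 were called. *kars-1*, for lysine, had 0.93 (adjusted p = 0.00207 by limma) and *pars-1*, for proline, 0.92 (adjusted p = 0.00817). *glp-4* had 0.63 (adjusted p = 0.0348). *hars-1* and *aars-2* were not called, with slopes of 0.62 and 0.57, and *wars-1*, whose level is close to background, had 0.04. Without replicate 5 of e1370 4 of the 20 were called, without replicate 2 of *daf-16* e1370 5, and with cyclic loess 0, while all 20 slopes were above 0 in each of these fits. The median slope of the 20 was 0.68, 0.50 and 0.36 in these fits. With array quality weights 4 were called and the median was 0.42.

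Of the 10 mitochondrial synthetases 2 were called, *rars-2* at 0.67 and *lars-2*, for leucine, at 0.59, and the median slope was 0.28. The share called, 20%, is close to the 17.5% of the brighter probe sets called positive, so it is not read as a result about this set. The difference between the cytosolic and the mitochondrial set was not tested. *vars-1*, whose compartment was not assigned, had a slope of 0.95 and was called. Within genotypes the SD between arrays had a median of 0.70 for the cytosolic enzymes and 0.40 for the mitochondrial ones.

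Among the initiation genes 5 of the 10 eIF3 subunits had called positive slopes. They were *eif-3.C* at 1.04, *eif-3.I* at 0.62, *eif-3.D* at 0.58, *eif-3.E* at 0.54 and *eif-3.G* at 0.31. *eif-3.F* and *eif-3.K* had slopes of 0.06 and 0.06 and were not called. Of the 7 eIF2 and eIF2B subunit genes *eif-2Bdelta* (0.35) was called, and its level is close to background. That share, 14.3%, is below the 17.5% of the brighter probe sets called positive. *eif-2A* (0.71) and *eif-2D* (0.49), which belong to neither complex, were also called. *eif-1.A*, *eif-4A3* and *eif-6* had slopes from -0.12 to 0.04. Of the elongation factors *eef-1G* (0.31) and *eef-1B.2* (0.28) were called. The *eef-1G* call was lost without replicate 1 of e1370 (adjusted p = 0.0649 by limma) or replicate 2 of *daf-16* e1370 (adjusted p = 0.0544). That of *eif-2A* was lost without replicate 5 of e1370 (adjusted p = 0.0682). Of the 10 eIF3 slopes 1 was called positive without replicate 5 of e1370, and 0 were with cyclic loess.

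**Figure D3:**
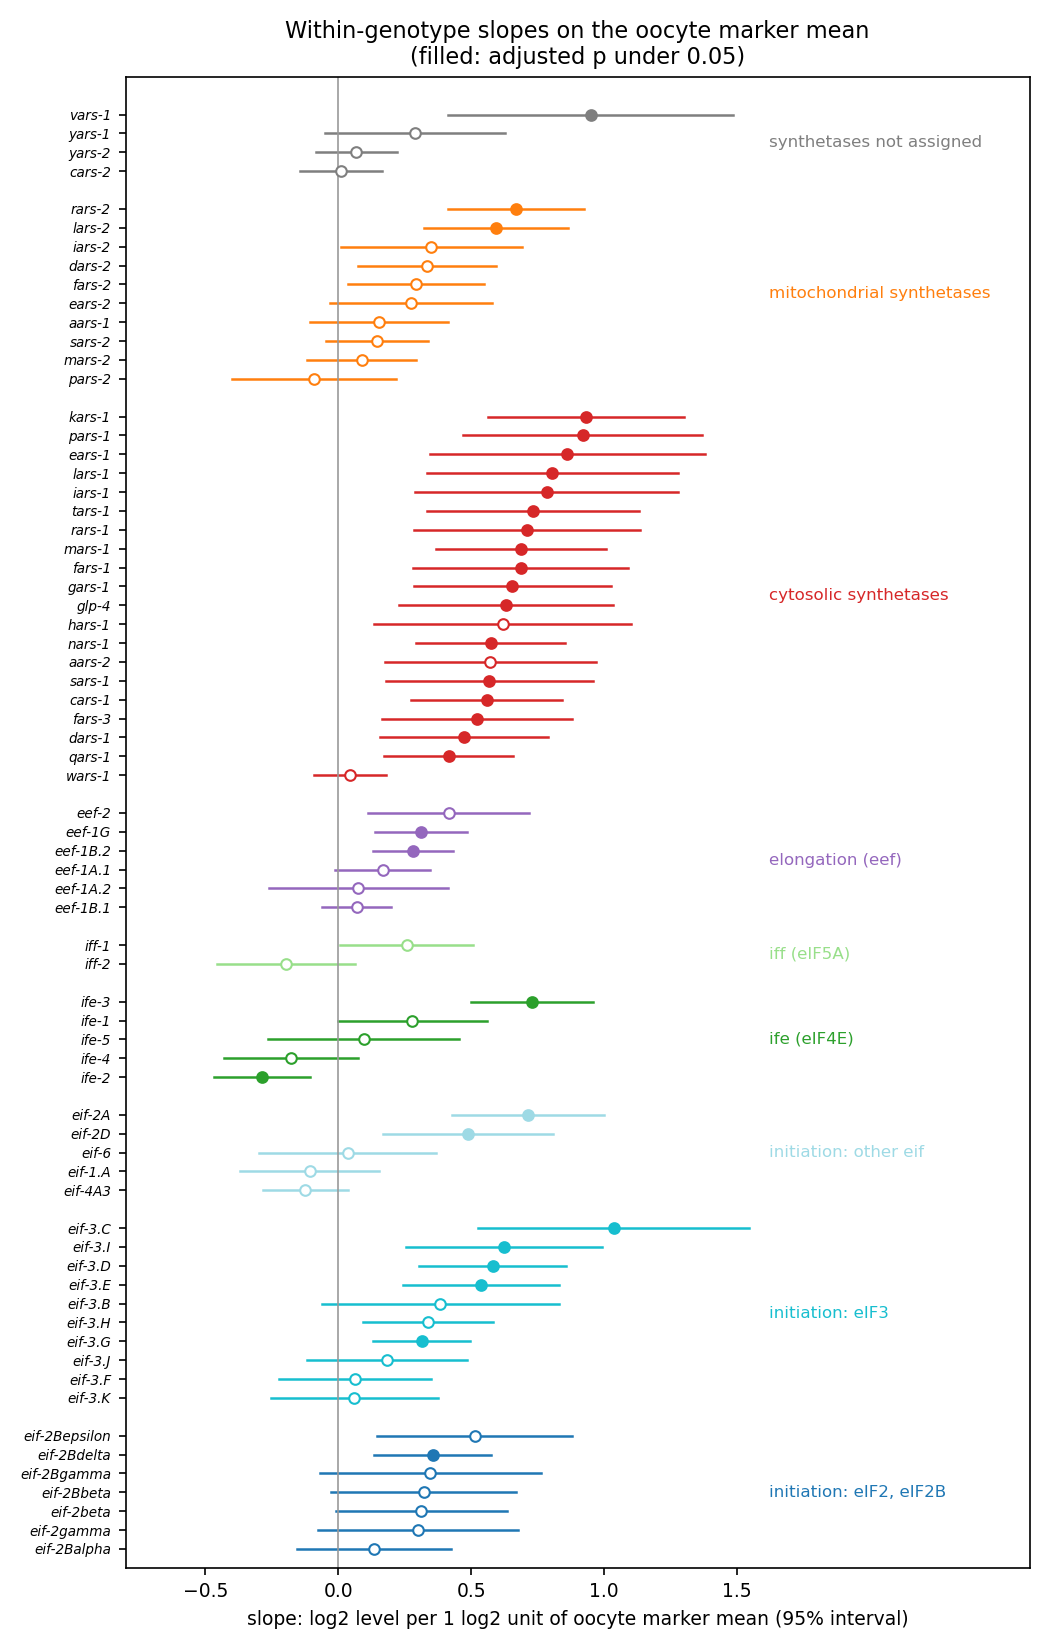
Slope of each of the 69 genes on the oocyte gene mean (log2 change per 1 log2 unit, horizontal axis), with 95% intervals, sorted within groups. Filled points have an adjusted p under 0.05 in limma. Cytosolic synthetases have a median slope of 0.64, mitochondrial ones 0.28, and *ife-2* is the only filled point below 0.

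Of the 7 eIF4E and eIF5A genes *ife-3* and *ife-2* were called, in opposite directions. *ife-3* had a slope of 0.73 ± 0.11 (adjusted p = 0.000346 by limma). Its levels were 9.98, 10.19, 9.99, 11.29 and 10.79 in e1370, where the oocyte gene mean was 8.33, 8.76, 9.61, 10.61 and 10.46. In m577 they were 8.68, 9.20, 11.01, 9.34 and 9.50, with oocyte gene means of 8.26, 8.74, 10.70, 9.07 and 9.20. In all 4 genotypes the array with the highest oocyte gene mean also had the highest *ife-3*, and the array with the lowest had the lowest. In *daf-16* e1370 *ife-3* had 10.02, 8.80, 11.32, 9.64 and 10.85, and in *daf-16* m577 10.84, 9.86, 10.54, 10.42 and 10.06. The slope was called with each single array left out, from 0.70 to 0.85, and in the 7 other fits that were run, from 0.69 to 0.80.

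*ife-2* had a slope of -0.29 ± 0.09 (adjusted p = 0.0323 by limma). Its levels were 9.62, 8.78, 8.68, 8.42 and 8.42 in e1370 and 8.55, 8.59, 8.31, 8.42 and 8.63 in m577. In *daf-16* e1370 they were 8.88, 8.70, 8.39, 8.59 and 8.44, and in *daf-16* m577 8.38, 8.88, 8.57, 8.56 and 8.54. Replicate 1 of e1370 was the highest, and without it the slope was -0.15 (adjusted p = 0.127). The call was also lost without replicate 5 of e1370, where the slope was -0.26 (adjusted p = 0.2). The same held without replicate 1 of *daf-16* m577, at -0.28 (adjusted p = 0.0547), and without replicate 2 of it, at -0.27 (adjusted p = 0.0554). With array quality weights the slope was -0.25 (adjusted p = 0.0555), and with cyclic loess it was -0.51 and called (adjusted p = 0.0163). *ife-1* had 0.28, *ife-5* 0.10 and *ife-4* -0.18, and none of them was called. *iff-1* had 0.26 and *iff-2* -0.20, also not called.

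**Figure D4:**
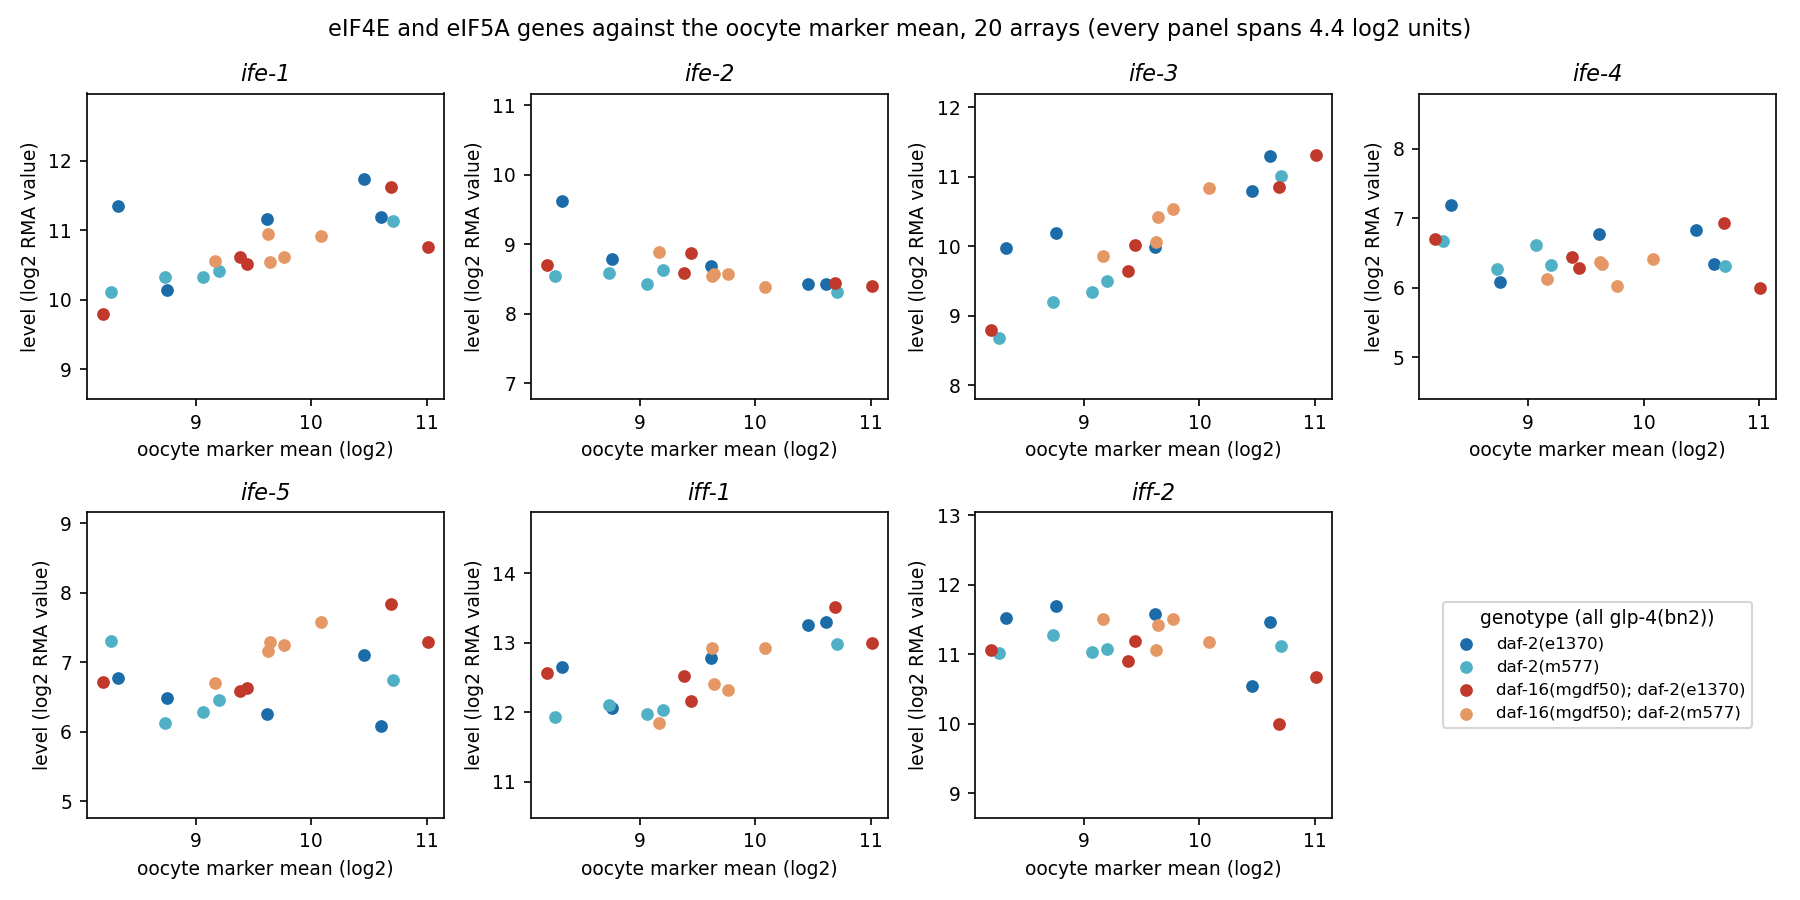
Levels of the 5 *ife* and 2 *iff* genes (log2 value, vertical axis, each panel of equal height) against the oocyte gene mean of the same array (log2, horizontal axis), 1 point for each of the 20 arrays, coloured by genotype. *ife-3* rises from 8.68 to 11.32, while *ife-2* stays between 8.31 and 8.88 apart from 9.62 on replicate 1 of e1370.

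Other genes of the pathway were followed by list. Of 17 other translation factors, *erfa-1*, the release factor that reads stop codons, was lower with *daf-16* present, by -0.65 ± 0.15 (adjusted p = 0.0134 by limma), and no other was called over both alleles, so the share called was 5.88%, close to the 6.32% of all probe sets. *erfa-3*, its partner GTPase, differed by -0.52 (adjusted p = 0.0547), and *ifg-1*, the eIF4G scaffold, by -0.96 (adjusted p = 0.219). The median of the list was -0.40. Of 17 genes of translation control, among them *let-363*, the TOR kinase, and *rsks-1*, the S6 kinase, none was called, and the median was -0.09. *let-363* differed by -0.37 and *rsks-1* by 0.15. Of 16 tRNA modification genes none was called, with a median of -0.09, and *elpc-1*, of the Elongator complex, differed by -0.69.

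On the oocyte gene mean, called positive slopes numbered 11 of 17 other factors, 6 of 17 control genes and 7 of 16 modification genes. The shares called positive were 10.4% of all probe sets and 17.5% of the brighter ones. With cyclic loess these counts were 2, 1 and 0, with array quality weights 7, 5 and 5, without replicate 5 of e1370 5, 3 and 1, and without replicate 2 of *daf-16* e1370 7, 4 and 3. *ifet-1*, which binds eIF4E and holds germ line mRNAs silent, had 1.29, *gfm-1*, a mitochondrial elongation factor, 0.87, and *daf-15*, the Raptor partner of TOR, 1.04. *rsks-1* had -0.09 and *erfa-1* 0.09, and neither was called.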

How the data were processed

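RNA was measured on 20 arrays. Per the labels, probe data came from scanner images through Microarray Suite (MAS) 5.0, and all 20 arrays were normalized together by Robust Multi-chip Average (R, Affymetrix package 1.4.14). The deposited values are log2 values, a scale read from their range. The method usually includes quantile normalization, so a change in total RNA would not be seen.

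From them, 77 control probe sets were left out and 22548 were tested with R 4.3.3 and limma 3.58.1 (functions lmFit, contrasts.fit, eBayes), with 1 mean per genotype over all 20 arrays and no covariates. Tests were 2-sided, in 6 comparisons. The array annotation gave 1 symbol to 20766 probe sets, several to 887 and none to 895. All 69 genes matched a RefSeq table of assembly WBcel235 by gene identifier. No sequence of these genes is shown. Synthetases were assigned to compartments from general knowledge of the genes. The assignment was not checked here, and a gene that serves both compartments would be counted in a single set.

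The members and lists were chosen with earlier results of these data known. By the rule for naming, *glp-4* and the called members were given on every array, and means or differences were given for the *ife*, *iff* and *eef* genes and the 2 largest uncalled differences of each group. Other slopes were named after their values were seen. The fits were also run on simulated data, with noise drawn independently for each probe set and array. Such data lack noise shared by the probe sets of an array, so they cannot show how stable the calls are. Replicates were separate sets of plates, and p-values measure the spread between these. The main fits did not treat the replicate numbers as pairs. By the titles, same-numbered arrays had correlations of their deviations from -0.54 to 0.82. Their median was 0.083, against -0.035 for the other pairs of arrays. By the other names the range was from -0.60 to 0.76, with a median of -0.007 against -0.003. Such wide ranges do not settle whether the numbers pair the arrays. The number of arrays limits the precision. Figures used matplotlib 3.10.9 and tables pandas 2.3.3.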

Additional observations from a re-analysis of the deposited data

Results flagged for a closer look

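The 3 called genes and the *ife*, *iff* and *eef* genes, 16 in all, were looked at for single arrays far from the other 4 of their genotype. Of 64 sets of 5 arrays, 8 had such an array. Chance gives about 1 in 20 for a single set. The 64 sets share the same 20 arrays, so the count cannot be set against that rate. *glp-4* was 6.084 on replicate 1 of m577, where the next lowest was 6.97, and 7.07 on replicate 5 of *daf-16* m577, where the next was 8.018. On replicate 2 of *daf-16* e1370, *eef-1A.1* was 12.76 (next lowest 13.285) and *eef-2* was 11.104 (next lowest 12.668), and this is the array with the lowest correlation with its group. On replicate 3 of m577, *eef-2* was 13.084 (next highest 12.872) and *iff-1* was 12.978 (next highest 12.109), and this array has the highest oocyte gene mean of its genotype and a low sperm gene mean. *eef-1B.1* was 12.704 on replicate 5 of *daf-16* m577 (next lowest 12.937), and *iff-2* was 10.536 on replicate 5 of e1370 (next lowest 11.463). The causes were not tested.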

How the results depend on the processing

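The differences of *glp-4*, *sars-2* and *eif-3.F* and the slopes of *ife-3*, *ife-2* and *glp-4* kept their sign in every setting run. Over both alleles the 2 called genes became 1 with array medians centred or with an intensity trend and robust settings, 6 with array quality weights (15% of all probe sets), and 0 with the oocyte and sperm means in the fit, with the 3' to 5' measure as a covariate or without the 3 arrays with low sperm genes. Leaving out single arrays gave 0 to 3. The *glp-4* difference ran from -1.21 to -0.59 over 12 settings and was called in 7, and it ran from -1.15 to -0.85 with single arrays left out, where the call was lost in 11 of 20: without replicate 1, 2 or 3 of e1370, 1 or 2 of m577, 1 or 3 of *daf-16* e1370, or 1, 2, 3 or 4 of *daf-16* m577 (adjusted p up to 0.0719 by limma). For *sars-2* the ranges were -0.39 to -0.26, called in 5 of 12, and -0.41 to -0.31, lost in 15 of 20, that is, without any array but replicates 1 and 5 of e1370, 2 of m577, 2 of *daf-16* e1370 and 5 of *daf-16* m577. *eif-3.F* ran from 1.15 to 1.41 over 13 settings, called in 11, and from 1.01 to 1.38 with single arrays left out, called in all 20.

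In e1370 quality weights gave 1 call and single arrays left out 0 to 2. In m577 quality weights gave 25 (29.5%), a fit of only the genotypes compared 2, and single arrays left out 0 to 1. For the difference between the differences, quality weights gave 8 (4.94%), and single arrays left out gave 0 to 0. Between alleles with *daf-16*, quality weights gave 13 (11.6%), a fit of only the genotypes compared 0, the germ cell covariates 3, and single arrays left out 1 to 4. Counts given here without a percentage have no share of all probe sets beside them and are not read as results about these genes. Without *daf-16* single arrays left out gave 0 to 0. Of the slopes, 49 were called with the oocyte gene mean alone (31.8%), 4 with cyclic loess, 15 with quality weights (13.5%), and 9 to 39 with single arrays left out. The *glp-4* slope was called in 5 of 7 settings, with cyclic loess at 0.28 (adjusted p = 0.628 by limma), and was not called without replicate 5 of e1370, 1 or 5 of m577, or 1, 2 or 3 of *daf-16* e1370 (0.50 to 0.81 over single arrays left out). The slope fits, the fits without single arrays for the slopes and their other settings were added after seeing the data. The causes were not tested.

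With the replicate number of the titles as a replicate block, 0 genes were called over both alleles and 1 in m577 (*mars-2*), and with the numbers of the other sample names 0 over both alleles and 0 between alleles with *daf-16*. Whether the numbers pair the arrays is not settled. Dim probe sets and array number limit what small differences can be seen.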
